A study of Mus musculus with 37 samples.

Results

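Metallothioneins are small, cysteine-rich proteins that hold zinc and copper. Here Mt1 and Mt2, the widely expressed metallothionein genes of the mouse, were described together with Slc30a1, which encodes the zinc exporter ZnT1 of the plasma membrane, and Mtf1, which encodes the zinc-sensing transcription factor MTF-1. The members are these 4 genes of the 23947 in the table, taken by symbol. Mt2 was chosen by its high cell-to-cell variance in FPKM in these same data, so its spread is a description and not a finding. The samples were 37 single cells, labelled as adipose tissue macrophages and sorted from the epididymal white fat of male, age-matched C57BL/6J mice. The mice ate a high-fat diet with 60% of its energy as fat, and the fat was digested with collagenase. Each cell was captured in a microfluidic chamber (Fluidigm C1) and its polyadenylated RNA was sequenced. All cells carried the same labels and none named an animal, so the group counted as 1 sample with no lean cells beside it, and cells gave neither p-values nor standard errors.

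When zinc rises in the cytosol, MTF-1 moves to the nucleus and binds metal response elements in front of target genes, among them Mt1, Mt2 and Slc30a1. The metallothioneins then bind the metal and ZnT1 pumps it out of the cell. Glucocorticoids, inflammatory cytokines and oxidative stress are also known to raise metallothionein transcripts. In macrophages this system takes part in withholding metals from engulfed microbes.

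Mt1 and Mt2 lie next to each other in the mouse genome and encode proteins of the same length. Their coding sequences are shown because they show how far reads of the near-copies can be told apart. They come from the GENCODE M21 transcripts Mt1-201 and Mt2-201 (549 and 511 bases), and capitals mark the 38 of 186 positions at which they differ.
Mt1: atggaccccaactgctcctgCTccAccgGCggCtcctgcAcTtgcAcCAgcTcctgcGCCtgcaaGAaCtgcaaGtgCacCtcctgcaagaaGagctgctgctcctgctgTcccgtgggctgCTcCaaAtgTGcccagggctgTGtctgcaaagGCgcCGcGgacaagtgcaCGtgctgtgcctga
Mt2: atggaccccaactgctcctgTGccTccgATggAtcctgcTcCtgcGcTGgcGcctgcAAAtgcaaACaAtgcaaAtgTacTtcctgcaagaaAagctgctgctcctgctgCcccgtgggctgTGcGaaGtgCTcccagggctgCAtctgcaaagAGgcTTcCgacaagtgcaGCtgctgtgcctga
The coding sequences were 79.6% identical, and all 20 cysteine codons stood at the same place in both. The longest run shared by the whole transcripts was 20 bases, and no stretch of 50 bases was common to them. The sources used here give neither the read length nor the treatment of reads that match both genes, so the split of reads between Mt1 and Mt2 carries some uncertainty.

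The promoters of Mt1, Mt2 and Slc30a1 are shown because these genes are the textbook targets of MTF-1. The sequences are the 250 bases before the RefSeq transcript start in build GRCm38.p6, all on the + strand, and capitals mark matches to the core of the metal response element. Mt1 has chr8:94178839-94179088, Mt2 has chr8:94172368-94172617 and Slc30a1 has chr1:191906531-191906780. The deposited values were made on build mm9, and no coordinate was carried from one build to the other.
Mt1: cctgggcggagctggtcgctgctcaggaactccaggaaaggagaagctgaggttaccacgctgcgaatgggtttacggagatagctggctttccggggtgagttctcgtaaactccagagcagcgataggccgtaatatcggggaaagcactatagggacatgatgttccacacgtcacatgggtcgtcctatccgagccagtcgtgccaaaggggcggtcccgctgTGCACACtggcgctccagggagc
Mt2: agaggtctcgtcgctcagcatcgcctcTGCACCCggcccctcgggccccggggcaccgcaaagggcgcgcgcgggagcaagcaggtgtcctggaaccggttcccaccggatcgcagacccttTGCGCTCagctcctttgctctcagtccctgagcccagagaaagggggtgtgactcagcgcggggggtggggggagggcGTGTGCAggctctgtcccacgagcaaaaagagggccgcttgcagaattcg
Slc30a1: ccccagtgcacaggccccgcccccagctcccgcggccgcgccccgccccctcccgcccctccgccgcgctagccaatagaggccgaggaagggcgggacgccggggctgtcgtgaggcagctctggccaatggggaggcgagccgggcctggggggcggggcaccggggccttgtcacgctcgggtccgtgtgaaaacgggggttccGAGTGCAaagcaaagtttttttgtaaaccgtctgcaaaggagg
The motifs searched were TGCACNC and TGCGCNC on both strands, in windows of 300 bases that also take in the 50 bases after the start. Positions are counted from 1 at the first transcribed base, with -1 just before it. Mt1 held 3 matches, beginning at -23, 3 and 21. Mt2 held 4, beginning at -223, -128, -50 and 5. Slc30a1 held 2, beginning at -43 and 31, and Mtf1 held 0. Among all 32851 RefSeq promoter windows, 25.7% held at least 1 match, 7.11% at least 2, 1.97% at least 3 and 0.517% at least 4. The member windows were richer in G and C (60.7% for Mt1, 67.7% for Mt2 and 73% for Slc30a1) than the median window at 52.7%. GENCODE places the start of Mt2-201 46 bases farther downstream and that of Mt1-201 7 bases farther upstream, so distances and counts depend on the annotation. Each gene had 1 window, and elements outside it, such as those near another transcript start, were not counted. A match describes letters in the window and is not evidence of binding.

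**Figure D1:**
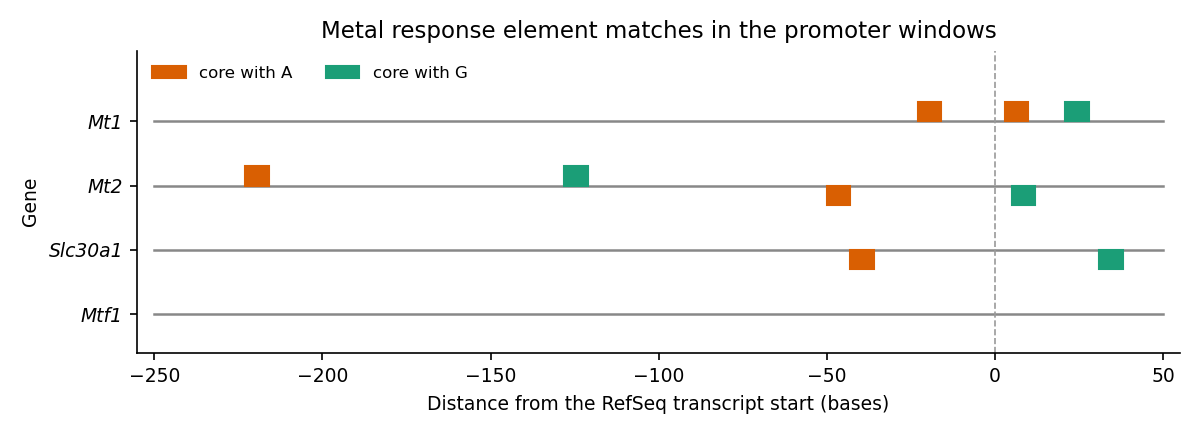
Matches to the metal response element core in the promoter windows of the 4 genes, by distance in bases from the RefSeq transcript start (dashed line). Boxes above a line are on the + strand and boxes below it on the other strand, orange for TGCACNC and green for TGCGCNC. Mt2 holds 4 matches, Mt1 3, Slc30a1 2 and Mtf1 none.

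The deposited unit, FPKM, is a fragment count divided by transcript length and sequencing depth, and detection of a gene means a value of at least 1 FPKM. The number of detected genes ranged from 1224 to 3204 per cell and the FPKM sum from 225528 to 1841666. An exact 0 need not mean that a transcript was absent, since Gapdh and Hprt, which nearly all cells use, were at 0 in 2 and 6 cells. A gene is therefore described as listed at 0. Whether such a 0 was a failed estimate was not tested. Fragment numbers were not in the table. The FPKM value of a single fragment, estimated from low values, spanned 69.2-fold between cells and was more than 4 times the median in 7 cells (2, 7, 11, 15, 17, 24 and 26). At a high fragment value, fewer fragments stand behind a given FPKM value in that cell. Because the FPKM sums also differed, it does not give the number of fragments in a cell. Cell 7, of high fragment value, had the most detected genes at 3204. Of 14 macrophage genes in the table, 8 to 13 were detected in each cell. Cells 7 and 27 held 7 and 8 of 8 fibroblast and adipocyte progenitor genes. Their summed macrophage genes stood at 327 and 139 FPKM, against 8504 FPKM or more in the other 35 cells, so these cells go against their label. No cell held 3 genes of the adipocyte, endothelial, mesothelial, neutrophil, dendritic cell, T cell, B cell or mast cell lists.

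Mt1 was detected in all 37 cells (100%, exact Clopper-Pearson 95% interval 90.5% to 100%). Its lowest value was 3.64 FPKM, its median 1561 FPKM and its highest 52462 FPKM. By its median it ranked 17 among all 23947 genes. Within single cells it was among the 10 most abundant genes in 10 cells and among the top 50 in 23, with a median rank of 30. It stood second in cells 7 and 27, the cells with fibroblast genes.

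Mt1 was high almost everywhere and very low in a few cells. It reached 1000 FPKM or more in 22 cells, lay between 100 and 1000 FPKM in 12, and was under 100 FPKM in 3. The low cells were cell 4 at 3.64 FPKM, cell 1 at 6.84 FPKM and cell 11 at 51.0 FPKM. The highest were cell 24 at 52462 FPKM, cell 26 at 25971 FPKM and cell 27 at 17014 FPKM. Cells 24 and 26 were also among the cells with a high fragment value and had the highest FPKM sums. As a share of the sum, Mt1 took from 0.00102% to 2.85% of a cell's FPKM, with a median of 0.470%, and cell 24 was still the highest. Cells 24, 29, 26 and 27 then lay close together, at 2.85%, 2.18%, 2.13% and 2.09%. The standard deviation of log2(FPKM + 1) was 2.73 for Mt1, near the median of 2.55 over the 2388 genes detected in at least 10 cells.

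Mt2 was detected in 25 of 37 cells (67.6%, 50.2% to 82.0%). Its lowest value was 0, its median 10.6 FPKM and its highest 3160 FPKM. It was listed at 0 in 9 cells, lay above 0 but under 1 FPKM in 3, between 1 and 10 FPKM in 6, between 10 and 100 FPKM in 7, between 100 and 1000 FPKM in 8 and at 1000 FPKM or more in 4. The values thus spread over the whole range without a single typical level. At a threshold of 10 FPKM the share of cells was 51.4%. With a standard deviation of 4.16 on the log2(FPKM + 1) scale, Mt2 ranked 9 among the 2388 genes, which is the property it was chosen for.

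The highest Mt2 values belonged to cell 17 at 3160 FPKM, cell 7 at 3066 FPKM, cell 27 at 2443 FPKM and cell 2 at 1165 FPKM. These are all cells that stand apart, either by a high fragment value (2, 7 and 17) or by fibroblast genes (7 and 27). Cell 17 also held 1 gene of the fibroblast and adipocyte progenitor list, Dpt at 604 FPKM. Its summed macrophage genes stood at 17480 FPKM. Of the 7 cells with a high fragment value, 3 had more than 1000 FPKM of Mt2 and the other 4 (11, 15, 24 and 26) were listed at 0, with none in between. The part of the fragment value in these extremes was not tested. Without those 7 cells, Mt2 was detected in 73.3% of the remaining 30. Without cells 7 and 27, it was detected in 23 of 35 cells (65.7%, 47.8% to 80.9%), and its median was 3.61 FPKM, while the Mt1 median was 1509 FPKM.

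**Figure D2:**
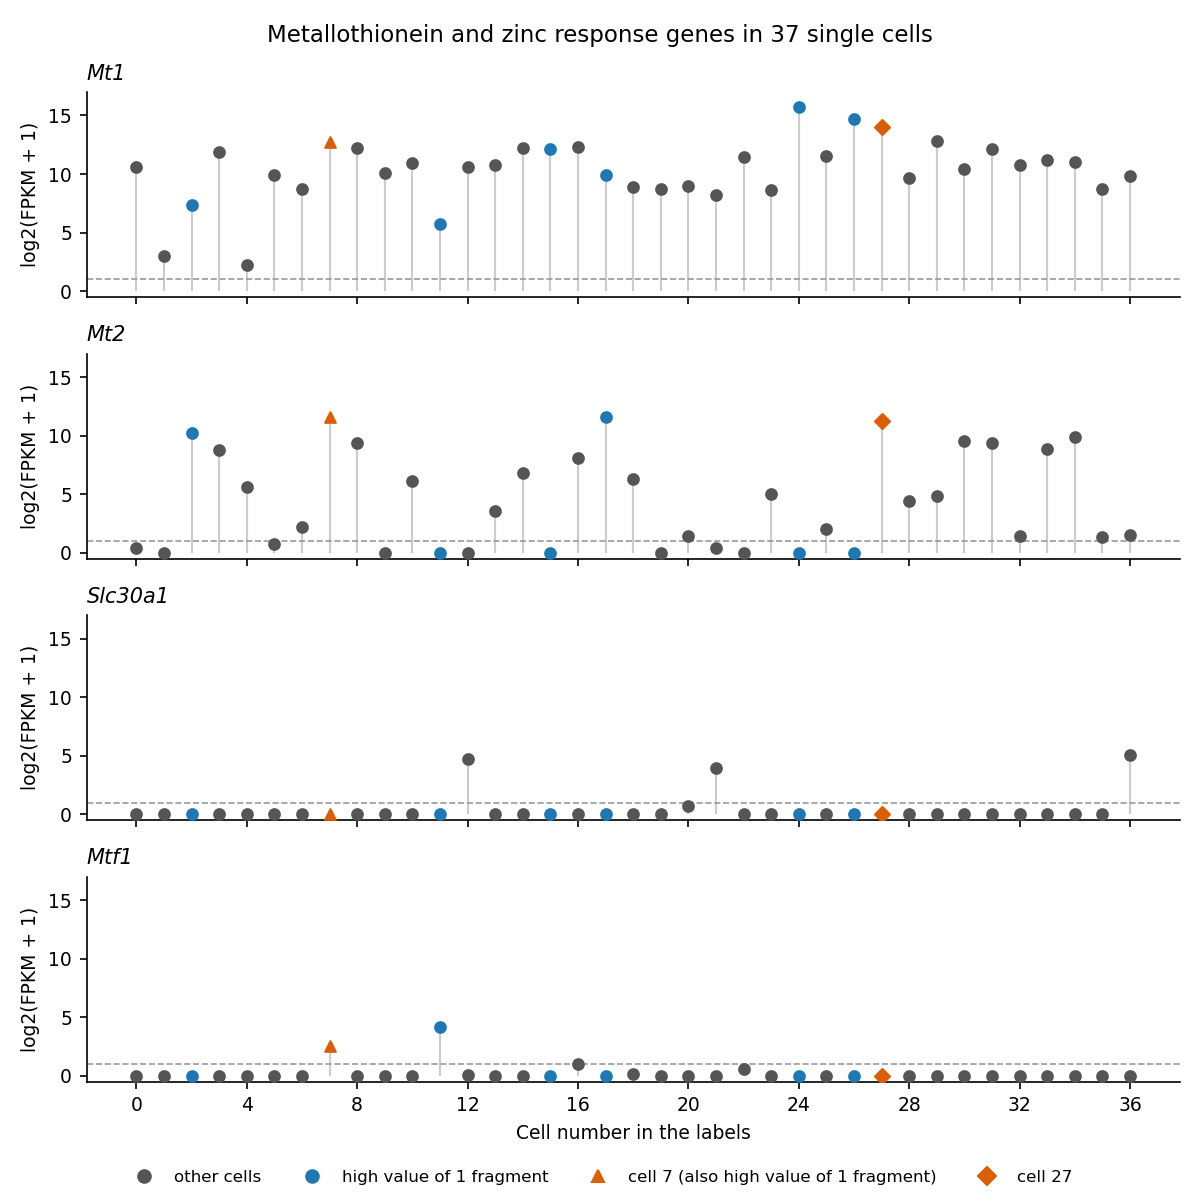
Levels of Mt1, Mt2, Slc30a1 and Mtf1 on the log2(FPKM + 1) scale, 1 point per cell by its number in the labels, with the dashed line at 1 FPKM. Blue circles and the orange triangle mark the 7 cells with a high value of 1 fragment. The triangle (cell 7) and diamond (cell 27) mark the cells with fibroblast genes. Mt1 is above the line in all 37 cells, Mt2 in 25, Slc30a1 in 3 and Mtf1 in 2.

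Mt1 exceeded Mt2 in 34 of 37 cells. FPKM is scaled to transcript length, which puts both genes on a common scale. The annotation behind that scaling is not given and the split of reads is uncertain, so the comparison is approximate. The median ratio of Mt2 to Mt1 was 0.00626. The exceptions were cell 2, with 1165 FPKM of Mt2 against 158 FPKM of Mt1, cell 17, with 3160 against 989 FPKM, and cell 4, with 49.4 against 3.64 FPKM. Cells 24 and 26 were the opposite extreme, with the highest Mt1 values and Mt2 listed at 0.

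Although the genes are neighbours and share a known regulator, their levels were only weakly related from cell to cell. Spearman rho of Mt1 with Mt2 over 37 cells was 0.20 and Pearson r of the log2 values was 0.19. Without cells 1 and 4, the farthest from the Mt1 median, r was still 0.19. The cells share 1 protocol and differ in depth, so these values are descriptions. Among 2387 genes ordered by rho from the highest, Mt2 ranked 265 with Mt1, and Mt1 ranked 392 with Mt2. The value depended on the cells taken. Among the 25 cells with both genes detected rho was 0.38, without the 7 cells of high fragment value it was 0.51, and without cells 7 and 27 it was 0.11. In cells 0 to 19 it was 0.39 and in cells 20 to 36 it was 0.01, a division by cell number that came from an earlier search of these data for library parts and is not in the labels. In the plot of Mt2 against Mt1, the cells of high fragment value lie either at 0 on the Mt2 axis or near its upper end.

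**Figure D3:**
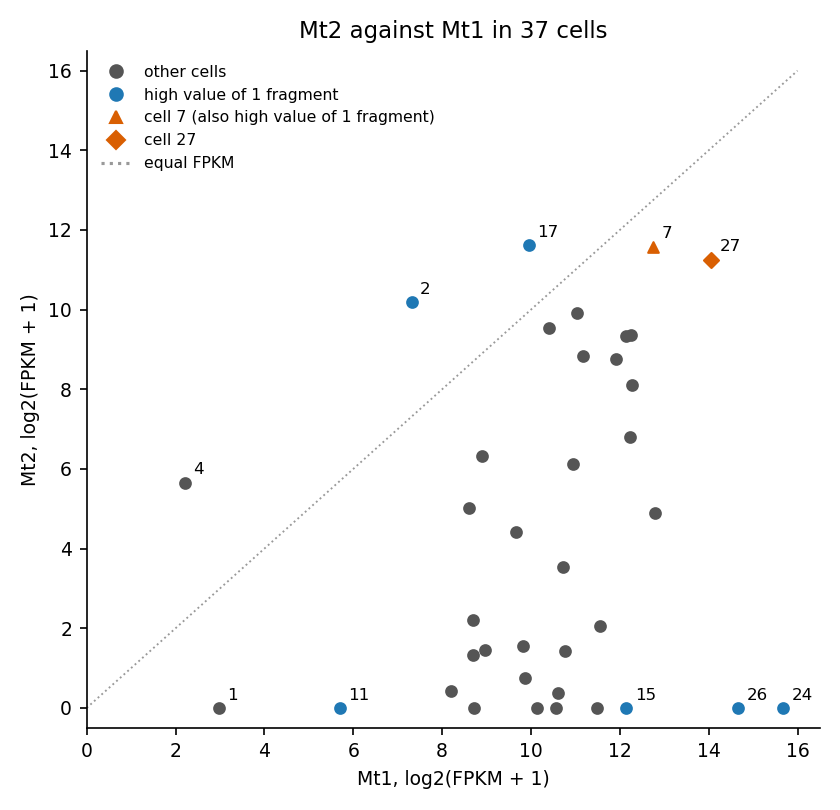
Mt2 against Mt1 in the 37 cells, each as log2(FPKM + 1), with the dotted line at equal FPKM. Cells 2, 4 and 17 lie above the line and 34 cells below it. Cells 24 and 26 have the highest Mt1 values and Mt2 at 0.

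Slc30a1, the zinc exporter gene, was detected in 3 cells (8.11%, 1.70% to 21.9%). These were cell 36 at 32.3 FPKM, cell 12 at 25.9 FPKM and cell 21 at 14.9 FPKM. It was above 0 but under 1 FPKM in 10 more and listed at 0 in 24. The cells with Slc30a1 were not those with the most metallothionein. Cell 36 had 908 FPKM of Mt1 and 1.92 FPKM of Mt2, cell 12 had 1509 FPKM and 0, and cell 21 had 295 FPKM and 0.341 FPKM. All 3 Mt1 values were below the median of all cells.

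Mtf1, the zinc-sensing factor, was detected in 2 cells (5.41%, 0.661% to 18.2%). Cell 11 had 17.5 FPKM and cell 7 had 4.83 FPKM, and cell 16 missed the threshold at 0.995 FPKM. Cell 11 had little Mt1 (51.0 FPKM) and Mt2 listed at 0, while cell 7 had 6863 FPKM of Mt1 and 3066 FPKM of Mt2. Both cells were among those of high fragment value, and without these 7 cells Mtf1 was detected in 0 of 30. The transcripts Slc30a1-201 and Mtf1-201 are 5244 and 7631 bases long, about 10 times the metallothionein transcripts or more. With so few cells, correlations of Slc30a1 and Mtf1 with the metallothioneins rest on values under the detection threshold. They lay between -0.18 (Mt2 with Mtf1) and -0.01 (Mt1 with Mtf1), and no genes were ranked by likeness to Slc30a1 or Mtf1. Low detection does not show that the proteins were absent.

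Among the remaining metallothionein genes, Mt3, known from brain, and Mt4, known from stratified epithelia, were listed at 0 in every cell. For 0 of 37 cells the exact Clopper-Pearson 95% interval reaches 9.49%, and the limit of 3 counts is 8.11%. Both cover the sampling of cells alone, and a listed 0 that was a failed estimate would not be covered.

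Zinc import genes were led by Slc39a1, which encodes the plasma membrane importer ZIP1. It was detected in 36 of 37 cells (97.3%, 85.8% to 99.9%), with a lowest value of 0.767 FPKM in cell 17, a median of 49.1 FPKM and a highest value of 4646 FPKM in cell 26. Its quartiles were 22.6 and 113 FPKM. It was the single one of the 24 zinc transporter genes found in at least 10 cells. Of the 14 importers, 11 were detected in some cell. Slc39a10 was found in 8 cells and Slc39a7, which releases zinc from the endoplasmic reticulum, in 7. Slc39a14, an importer known to be induced in inflammation, did not reach 1 FPKM in any cell and peaked at 0.755 FPKM. Slc39a8, an importer known to be induced by NF-kB, was detected in 1 cell at 89.8 FPKM.

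Of the 10 exporters of the SLC30 family, 6 were detected in some cell. Besides Slc30a1 these were Slc30a9 in 5 cells, Slc30a5, Slc30a6 and Slc30a7, which encode transporters of the secretory pathway, in 4 cells each, and Slc30a4 in 1. Slc30a2, Slc30a3, Slc30a8 and Slc30a10 were listed at 0 in all 37 cells. A cell held from 1 to 5 detected zinc transporter genes, with a median of 3.

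**Figure D4:**
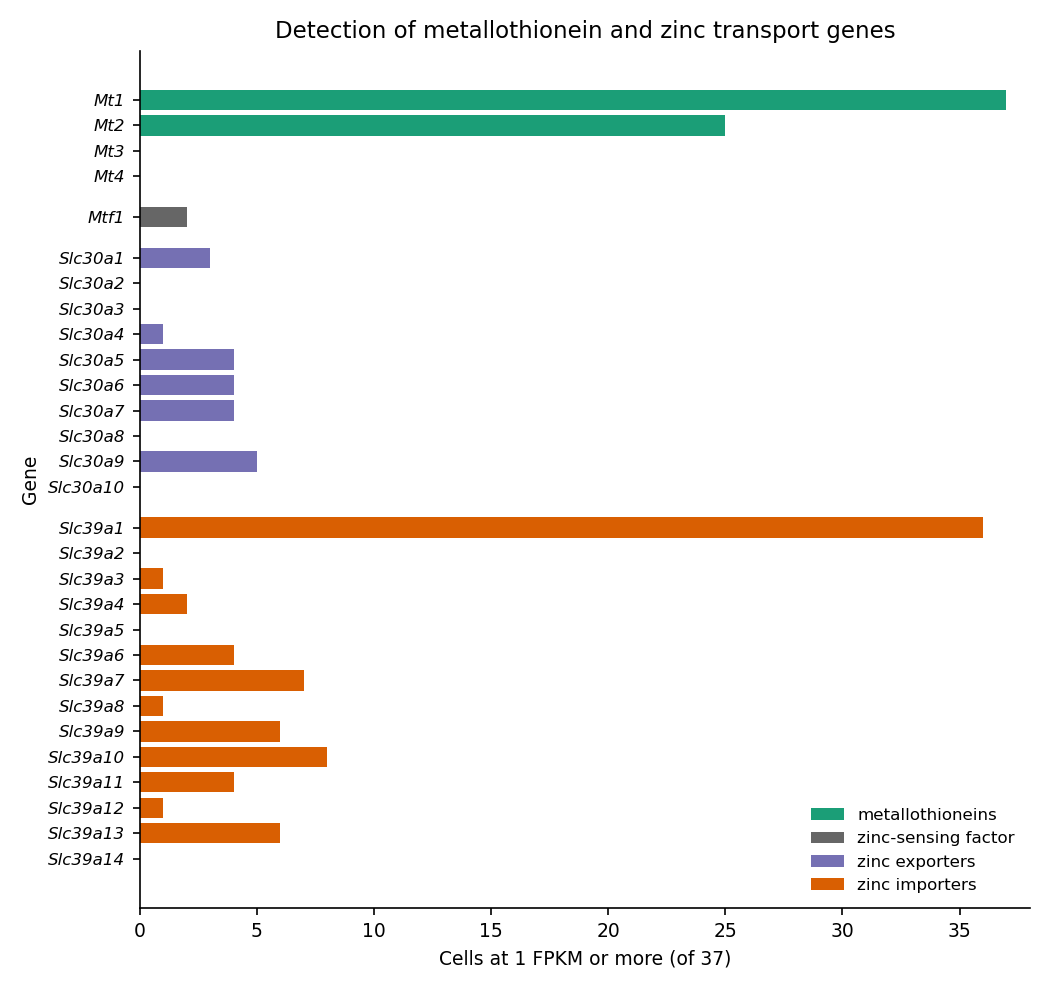
Number of cells, of 37, in which each metallothionein, zinc-sensing, zinc exporter and zinc importer gene was at 1 FPKM or more. Mt1 (37 cells), Slc39a1 (36) and Mt2 (25) stand far above the other genes, of which Slc39a10 is the highest at 8.

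Over the 37 cells, Slc39a1 had rho 0.04 with Mt1 and -0.20 with Mt2. The wider relation of the metallothioneins to other genes was described over the 2387 other genes detected in at least 10 cells. At rho 0.4 or more with Mt1 stood 19 genes (0.796%), and at -0.4 or less 27 (1.13%). With Mt2 these counts were 40 (1.68%) and 10 (0.419%). After scaling to the same FPKM sum in every cell the Mt1 counts were 11 and 32, and without cells 7 and 27 they were 11 and 38 with Mt1 and 29 and 17 with Mt2. With Mt1 the balance turned in other sets of cells, to 42 and 37 without the cells of high fragment value and 119 and 71 in cells 0 to 19, while in cells 20 to 36 it was 92 and 188. With Mt2 these counts were 60 and 20, 131 and 60, and 188 and 144. The median rho over all genes was -0.01 with Mt1 and 0.04 with Mt2. Such small shares are the background for the lists that follow.

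The gene that followed Mt1 most closely was Egr1, an immediate early transcription factor induced within minutes of stimulation. Egr1 was detected in 22 cells, with a lowest value of 0.0405 FPKM, a median of 2.24 FPKM and a highest of 2019 FPKM, and its rho with Mt1 was 0.57. The value was 0.59 and 0.71 in the lower- and higher-numbered cells, 0.53 without cells 7 and 27, 0.64 without the cells of high fragment value and 0.51 after scaling all cells to the same FPKM sum. Next came Pmp22, a membrane protein of myelin, at 0.56, and Fosl2, which encodes the AP-1 subunit Fra-2, at 0.52. Fosl2 was detected in 19 cells and its rho stayed between 0.49 and 0.53 under the same choices of cells and scale. Tcof1, of ribosome production, at 0.52, Eif4b, a translation initiation factor gene, at 0.46, the nuclear receptor coactivator gene Pnrc1 at 0.46, Klf4, a transcription factor of monocytes and macrophages, at 0.45, and the ribonuclease gene Rnase4 at 0.44 completed the 8 highest. Klf4 differed between the ranges of cell numbers, at 0.19 in cells 0 to 19 and 0.75 in cells 20 to 36. Pmp22 also differed between these ranges, at 0.36 and 0.68, and so did Pnrc1, at 0.64 and 0.30. Tcof1 was detected in 10 cells and Pnrc1 in 11, so their values rest on few detecting cells. Without the cells of high fragment value Tcof1 fell to 0.35, while Eif4b stood at 0.49.

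The lowest rho with Mt1 was that of Ctss. Ctss, the antigen-processing protease cathepsin S, was detected in all 37 cells, from 6.42 to 9470 FPKM with a median of 1311 FPKM, at rho -0.60. In the ranges of cell numbers it stood at -0.36 and -0.87, and without cells 7 and 27 at -0.53. Gm2a, the cofactor for lysosomal breakdown of ganglioside GM2, stood at -0.51. Cpeb4, a regulator of mRNA translation, and Clec4a2, a C-type lectin receptor gene of myeloid cells, stood at -0.56 and -0.55. Cpeb4 was detected in 11 cells only. Without the cells of high fragment value Cpeb4 stood at -0.37 and Clec4a2 at -0.56. Of the 12 macrophage genes tested, 3 had a positive rho with Mt1 and 4 with Mt2. The list's median was -0.18 with Mt1 and -0.11 with Mt2, and Tyrobp, a signalling adaptor of myeloid receptors, was the lowest at -0.45 with Mt1. Without cells 7 and 27 these medians were -0.08 and 0.01.

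The genes highest with Mt2 were named by the same rule. Cnih4, of vesicle transport from the endoplasmic reticulum, and Sub1, a transcriptional coactivator gene, had rho 0.51 each, and Metap2, which removes the first methionine of new proteins, had 0.50. Rnase4 and BC028528 stood at 0.49 each, Fam3c at 0.49, Pfdn1, of the prefoldin chaperone, at 0.48 and Pbdc1 at 0.47. Cnih4, Fam3c and Pbdc1 were each detected in 11 cells and Sub1 in 31, so several of these values rest on few detecting cells. On the negative side were Dpep2, a membrane dipeptidase gene, at -0.49, Rrnad1 at -0.48, Pde3b, a phosphodiesterase gene, at -0.46 and Hmha1, a GTPase-activating protein gene, at -0.46. Without the 7 cells of high fragment value Metap2 fell to 0.29, BC028528 to 0.30 and Hmha1 to -0.22. Rnase4 at 0.53, Pfdn1 at 0.50, Rrnad1 at -0.56 and Pde3b at -0.49 were then larger in size. Of the 8 genes highest with each metallothionein among the 2387 tested, Rnase4 alone was in both sets. Sets of 8 from so many genes would share few genes in any case. The small overlap is therefore not read as a difference between Mt1 and Mt2.

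Of the 11 immediate early genes, which respond to stimulation without new protein synthesis, all were tested. With Mt1, 9 had a positive rho and 2 reached 0.4, Egr1 and Jun at 0.57 and 0.43, beside 0.796% of all genes. Jun fell to 0.34 without cells 7 and 27 and to 0.34 after scaling to the same FPKM sum. Without the cells of high fragment value Jun stood at 0.37. Egr1, the highest of all 2387 genes with Mt1, stayed above 0.4 in each. The list's median was 0.14, against -0.01 over all genes. Fos and Zfp36, which encodes an mRNA-destabilising protein, both stood at 0.35, whereas Junb was at -0.23. The median was 0.03 in cells 0 to 19, 0.36 in cells 20 to 36 and 0.37 without the cells of high fragment value. It was 0.10 without cells 7 and 27 and 0.11 after scaling. With Mt2 the list's median was 0.04, beside 0.04 over all genes, and Ier2 alone reached 0.4, at 0.45, beside 1.68% of all genes. All cells had been through 30 min of digestion, and its part in these levels was not tested.

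The lists for other inputs known to act on metallothionein genes had few genes to test. Of the genes tested below for glucocorticoids, interleukin 6 and oxidative stress, 0 reached 0.4 or -0.4 with either metallothionein, beside 0.796% and 1.13% of all genes with Mt1 and 1.68% and 0.419% with Mt2. With so few genes, a count of 0 lies near that background. Among glucocorticoid response genes 4 of 10 were tested. The list's median was 0.07 with Mt1 and 0.16 with Mt2. Tsc22d3, the glucocorticoid-induced leucine zipper gene, detected in 27 cells, stood at 0.04 and 0.03. The others were Nr3c1 at 0.21 and 0.30, Sgk1 at 0.01 and 0.29, and Per1 at 0.10 and -0.02. Among interleukin 6 and Stat3 response genes 5 of 10 were tested, with medians of 0.01 and 0.05. Socs3, the feedback inhibitor of this pathway, had 0.11 with Mt1 and 0.34 with Mt2, and Stat3 itself had -0.31 and 0.04. Cebpb, detected in 35 cells, stood at 0.06 and 0.05. Among oxidative stress genes 3 of 10 were tested, with medians of 0.10 and 0.10. Hmox1, which degrades haem, was detected in 10 cells and stood at 0.10 with Mt1 and 0.11 with Mt2. Nfe2l2, detected in 30 cells, stood at 0.21 and 0.09, and Prdx1, detected in 36, at -0.12 and 0.10.

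Copper handling genes gave no common direction. Atox1, a copper chaperone, passed 1 FPKM in 33 cells, with a median of 379 FPKM, and stood at -0.01 with Mt1 and 0.33 with Mt2. Cox17, which delivers copper to cytochrome c oxidase, stood at 0.23 and -0.06, and Commd1 at -0.18 and 0.12. The copper importer gene Slc31a1 was detected in 4 cells and the copper pump gene Atp7a in 8. Of the heat shock genes, 4 of 10 were tested, with a median of -0.04 with Mt1 and -0.03 with Mt2. Hsp90aa1, a cytosolic chaperone, stood at -0.41 with Mt1 and -0.04 with Mt2. It alone of these reached -0.4 with Mt1, beside 1.13% of all genes. With Mt1, Hspe1 stood at -0.26, Hspa8 at 0.19 and Hspd1 at 0.18. Pgk1, of glycolysis, was the single hypoxia response gene detected in at least 10 cells, at 0.03 and 0.06.

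**Figure D5:**
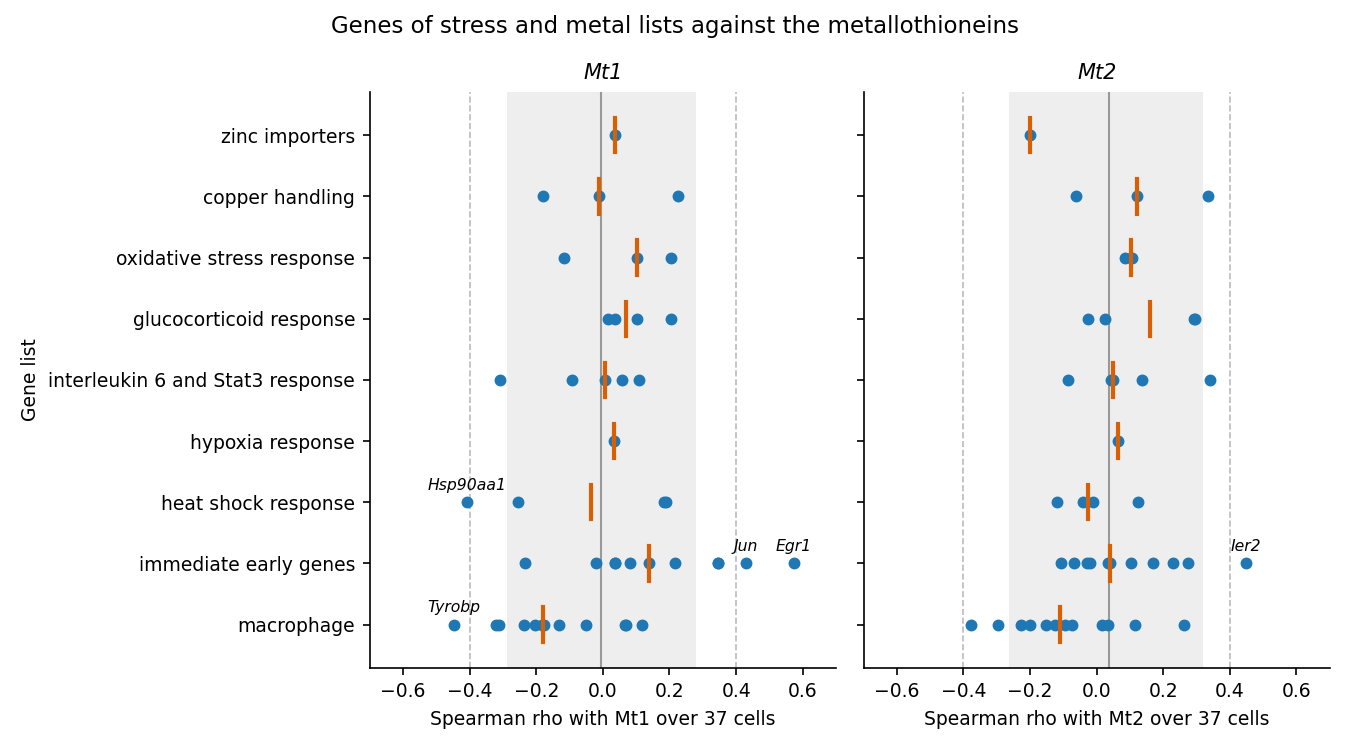
Spearman rho over 37 cells of each tested list gene (blue points) with Mt1 (left) and Mt2 (right). Orange bars are list medians, the grey line and band are the median and the middle 90% of all 2387 genes, and dashed lines mark -0.4 and 0.4. Egr1 and Jun lie beyond 0.4 with Mt1, Ier2 with Mt2, and Hsp90aa1 and Tyrobp below -0.4 with Mt1.

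The metallothioneins were also set against measures of library quality. For Mt1, Spearman rho was 0.24 with the FPKM sum, 0.00 with the number of detected genes and 0.22 with the value of 1 fragment. For Mt2 these values were -0.02, 0.20 and 0.09. As shares of the FPKM sum, Mt1 and Mt2 were related at rho 0.26, against 0.20 as deposited.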

How the data were processed

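Per the labels' protocols, cells were sorted from digested fat, captured on a Fluidigm C1 instrument and made into Nextera XT libraries. The deposited values are FPKM, made by the authors with STAR and Cuffnorm on mouse build mm9, per the submitters' processing notes. No source used here gives their versions, annotation or settings. The FPKM were used as deposited, and log2(FPKM + 1) for Pearson r and standard deviations (Python 3.11.15, numpy 2.4.6, scipy 1.17.1). Shares carry exact 95% intervals for the sampling of cells alone. No doublet caller was run and all 37 cells were kept. Spearman rho was computed for genes at 1 FPKM or more in at least 10 cells.

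Named were the members, zinc genes detected in at least 10 cells (and, beyond that rule, others chosen after their values were seen), the 8 highest and 4 lowest genes by rho with Mt1 and Mt2, and the leading genes of the lists. The members and lists were chosen with earlier results of these data known. Of 166 list genes, 163 were in the table, with Emr1 as the older symbol of Adgre1. The value of 1 fragment was the least-squares solution over the most frequent ratios of values between 0.005 and 1 FPKM in 666 pairs of cells, of which 500 were kept.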

Additional observations from a re-analysis of the deposited data

How the results depend on the processing

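Detected shares, medians and correlations of the 4 genes were recomputed with other thresholds, pseudocounts, scalings and sets of cells, with a change of 0.2 in rho, 1.5 times in a count, or the 95% interval as tolerance. Shares stayed within it in 26 of 28 alternatives, the exceptions being 0% for Mtf1 in cells 20 to 36 and without the 7 cells of high fragment value. Medians stayed in 12 of 12, but this count says little about stability. Those of Slc30a1 and Mtf1 could not move, because both genes were listed at 0 in most cells. The Mt2 median fell from 10.6 to 3.61 FPKM without the cells with fibroblast genes. It still counted as unchanged, since its 95% interval ran from 1.52 to 79.2 FPKM. Standard deviations stayed in 8 of 12 (the others being Slc30a1 and Mtf1 with pseudocounts 0.1 and 10) and member correlations in 52 of 55. Mt1 with Mt2 moved to 0.51 without the 7 cells of high fragment value. Mt1 with Slc30a1 moved to 0.23 in cells 0 to 19 and -0.38 in cells 20 to 36. Correlation over cells with both genes detected was not computed for pairs with Slc30a1 or Mtf1, which shared at most 3 such cells. The number of genes at an absolute rho of 0.4 or more, 46 for Mt1 and 50 for Mt2, was 183 and 220 at a threshold of 0.3, 8 and 2 at 0.5, 89 and 83 with genes detected in 5 cells, 16 and 16 with genes detected in 20 cells, 190 and 191 in cells 0 to 19, 280 and 332 in cells 20 to 36, and 79 and 80 without the 7 cells. Leaving out the 7 cells was chosen after seeing the data for shares, medians and gene counts. Fewer cells widen the spread of rho by construction. No correlation of the 24 named pairs changed sign, and 136 of 144 values stayed within 0.2. These pairs were picked for extreme rho in the same cells that each alternative reused. Keeping the sign was therefore favoured in advance and says little about other cells.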

Other observations

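At rho 0.4 or more with both metallothioneins stood 2 genes, beside 0.796% of all genes with Mt1 and 1.68% with Mt2. These were Rnase4, which the rule for named genes also gave, and Ly6e, which was singled out after its values were seen. Rnase4, a secreted ribonuclease gene, was detected in 18 cells, up to 1230 FPKM, at 0.44 with Mt1 and 0.49 with Mt2. Ly6e, a lipid-anchored surface protein gene known to respond to interferon, was detected in 11 cells, up to 1138 FPKM, at 0.42 with each. Without cells 7 and 27 the values were 0.37 and 0.43 for Rnase4 and 0.35 and 0.33 for Ly6e.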
